A study of Drosophila melanogaster with 2 samples.

Results

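Genes of the antioxidant defence of Drosophila melanogaster were examined for occupancy by MTF-1, a zinc-finger transcription factor that responds to metals. They encode the enzymes Cat, Sod1, Sod2, Prx2, Prx3, Trxr1 and the thioredoxin Trx2, and the regulators Keap1 and cnc. The members were taken by name, and all 9 were found among 13945 annotated protein-coding genes. The data are ChIP-seq peak lists (sequencing of DNA bound to an immunoprecipitated protein) from whole embryos aged 0 to 24 h with males and females pooled. The embryos came from a transgenic line in which MTF-1 carries GFP at its C terminus, and both samples are of this 1 group, as biological replicates 2 and 4. No group without the tag and none exposed to metal or oxidant is labelled, so the lists show where regions lie in unchallenged bulk embryos, over all cell types at once. The description field of both samples speaks of an input control, while the assay and antibody labels name MTF-1. They were treated as immunoprecipitates.

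Superoxide is turned into hydrogen peroxide by the superoxide dismutases, and hydrogen peroxide is removed by catalase and the peroxiredoxins. Peroxiredoxins are recycled by thioredoxin, which thioredoxin reductase keeps reduced. In flies this reductase also serves glutathione, because flies lack glutathione reductase. The transcription of many such genes is driven by CncC, the long product of cnc and the counterpart of mammalian Nrf2. CncC is held in check by Keap1, an adaptor of the Cul3 ubiquitin ligase.

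The lists used were 4: 30000 candidate regions for each replicate, 30000 for the pooled reads, and 3587 thresholded peaks. The thresholded peaks were the 3587 pooled regions of highest signal, without exception, so the threshold acted as a cut at pooled rank 3587. Regions were ranked within a list by the deposited signal value, with rank 1 the strongest, because the scale of signal is not stated. A region counted for a gene when its summit lay in the gene or within 5 kb of it. Transcript starts were also examined alone, with summits within 1 kb.

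Keap1, cnc, Prx2, Trx2 and Sod2 had at least 1 thresholded peak, while Cat, Sod1, Trxr1 and Prx3 had none. The 5 of 9 genes (55.6%) stood beside 38.7% of all protein-coding genes. Counted within 1 kb of a transcript start, the same 5 genes had a peak (55.6%), beside 17.0% of all protein-coding genes. Any start of a gene counted, and the 9 genes have 26 starts. Shares near a start were not adjusted for the number of starts per gene. Before thresholding, all 9 genes had a candidate region of the pooled list in reach (87.7% of all protein-coding genes), and 8 had one within 1 kb of a start (55.8% of all). Prx3 was the gene without. No test was made of these shares over 9 genes chosen by name.

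The count depended on the replicate. Among the 3587 strongest regions of replicate 2 alone, 4 of the 9 genes had a region in reach (Keap1, cnc, Prx2 and Trx2), and 3 within 1 kb of a start (Keap1, cnc and Prx2). Among those of replicate 4 alone, 6 genes had a region in reach, with Sod2 and Prx3 added, and 4 within 1 kb of a start (Keap1, cnc, Trx2 and Sod2). Keap1 and cnc thus had strong regions near a start in both replicates, and no other gene of the 9 did. The share over all protein-coding genes was not taken for the replicate lists, so these counts have no background beside them.

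**Figure D1:**
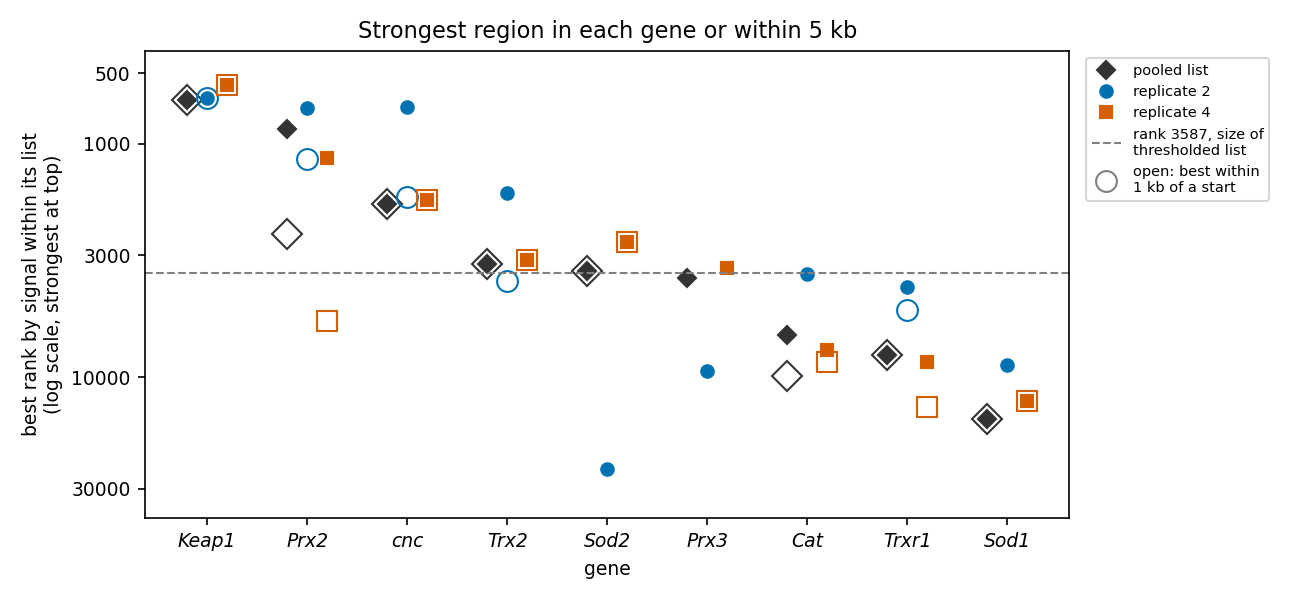
Best rank of each gene in the pooled list and in replicates 2 and 4 (y axis, log scale, strongest at top; x axis, genes ordered by pooled rank). Filled symbols take summits in the gene or within 5 kb and open symbols only those within 1 kb of a transcript start; the dashed line is rank 3587. Keap1 lies between 561 and 648 in all 3 lists, but its 561 in replicate 4 is a region in an intron of the neighbour kuk. The region at the internal Keap1 start, which gives 640 and 648, ranks 750 in replicate 4. Sod2 lies at 2636 in replicate 4 and 24710 in replicate 2.

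By best pooled rank in reach, the order was Keap1 (648), Prx2 (861), cnc (1810), Trx2 (3289), Sod2 (3508), Prx3 (3744), Cat (6569), Trxr1 (8009) and Sod1 (15153). In replicate 2 it was Keap1 (640), cnc (695), Prx2 (701), Trx2 (1627), Cat (3601), Trxr1 (4116), Sod1 (8854), Prx3 (9411) and Sod2 (24710). In replicate 4 it was Keap1 (561), Prx2 (1147), cnc (1734), Sod2 (2636), Trx2 (3144), Prx3 (3408), Cat (7636), Trxr1 (8590) and Sod1 (12680). Keap1 led in every list. In the pooled list the best regions of Prx2 and Cat lay nearer to the start of a neighbouring gene. In replicate 2 those of Prx2, Trx2, Cat, Trxr1, Sod1 and Sod2 did, and in replicate 4 those of Keap1, Prx2, Cat and Trxr1. The order thus compares windows, not the same region in each list. The order of Prx2 and cnc was exchanged between the replicates. So was that of Sod2 with each of Trx2, Prx3, Cat, Trxr1 and Sod1, and that of Prx3 with each of Cat, Trxr1 and Sod1. The windows of these pairs were thus not separated beyond the replicates. Trx2 ranked ahead of Prx3, Cat, Trxr1 and Sod1 in both replicates, and Cat, Trxr1 and Sod1 kept their order.

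In all, 14 thresholded peaks lay in the 9 windows: 4 each at Keap1 and cnc, 3 at Prx2, 2 at Trx2 and 1 at Sod2. Their median signal was 134, against 154 over all thresholded peaks, and their median pooled rank was 2278. Per 10 kb of window, the 9 windows together held 0.889 thresholded peaks, against 0.374 over the windows of all protein-coding genes and 0.268 over the genome. Keap1 had 2.5 per 10 kb and Prx2 2.46. The window of cnc was long, at 51.1 kb against a median of 12.2 kb over all genes, and cnc had 0.782 per 10 kb despite its 4 peaks. Of the 14 summits, 9 (64.3%) lay within 500 bp of a transcript start of some gene, against 50.5% of all thresholded peaks. The shares are not alike, because the 14 were taken for lying in or within 5 kb of a gene. For 9 of the 14 the nearest start belonged to the redox gene, and for the other 5 it belonged to a neighbour.

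The DNA at the summits was read from the dm6 genome, plus strand, 50 bp to each side of the summit. Capitals mark the core of the metal response element (MRE), the DNA site that MTF-1 recognises, searched as TGCACNC and TGCGCNC on both strands. The 4 member peaks that held a core are shown, with the strongest cnc peak for contrast.
Keap1, internal start, rank 648, chr3R:17078185-17078285: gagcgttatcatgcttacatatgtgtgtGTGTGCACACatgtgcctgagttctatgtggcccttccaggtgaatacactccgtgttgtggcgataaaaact
Keap1, rank 1460, chr3R:17079433-17079533: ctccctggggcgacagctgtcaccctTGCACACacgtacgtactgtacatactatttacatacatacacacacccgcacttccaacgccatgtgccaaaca
Prx2 window, rank 861, chrX:13332775-13332875: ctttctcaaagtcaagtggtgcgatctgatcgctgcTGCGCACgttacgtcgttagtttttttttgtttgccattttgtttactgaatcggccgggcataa
Trx2, rank 3289, chr2L:9614051-9614151: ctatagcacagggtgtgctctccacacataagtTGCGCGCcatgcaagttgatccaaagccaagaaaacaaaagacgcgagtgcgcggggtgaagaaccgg
cnc, rank 1810, chr3R:23190076-23190176: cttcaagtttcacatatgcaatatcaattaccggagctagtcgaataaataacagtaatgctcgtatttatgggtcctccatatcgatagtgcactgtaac

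The peak at the internal Keap1 start held 2 cores, a TGCACAC on each strand. They overlapped to form the palindrome GTGTGCACAC at 3R 17078213 to 17078222, with their nearest bases 13 and 16 bp from the summit. The Keap1 peak of rank 1460 held a TGCACAC 18 bp from its summit, and that in the Prx2 window a TGCGCAC 8 bp away. At Trx2 the core was TGCGCGC, 11 bp from the summit. In all, an MRE core was found this close (50 bp) in 4 of 14 peaks (28.6%), beside 11.4% of all thresholded peaks. Widening the search to 100 bp or to the whole peak found no further peak with a core. With the summits of replicate 4 in place of the pooled ones the count was 3.

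The antioxidant response element (ARE), the site bound by CncC with a small Maf protein, was searched in the same way as TGACNNNGC. None of the 14 peaks held it within 50 bp of the summit or elsewhere in the region, and 2.37% of all thresholded peaks held it within 50 bp. The wider region of replicate 2 at the strongest cnc peak (rank 1691 there) held 1 match, more than 100 bp from its summit. Within 300 bp of a transcript start, 5 of the 9 genes (55.6%) had an MRE core (Cat, Sod1, Trxr1, Keap1 and cnc), against 43.1% of protein-coding genes. An ARE lay there in 2 of the 9 (22.2%; Trxr1 and cnc), against 20.4%. At cnc the match TGACTCAGC lay 80 bp upstream of the start at 3R 23190419, in cgaatagcgaTGACTCAGCagtttaaaaa, under a weak candidate region of pooled rank 28235. The strongest pooled candidate region at cnc with an ARE ranked 7700, with 9758 in replicate 2 and 4536 in replicate 4. It held TGACGGCGC 10 bp from its summit. That summit lay 360 bp upstream of the most distal start, and the match lay outside the 300 bp searched. Trxr1 had 2 MRE cores around its start at X 8243582, yet the pooled candidate region there ranked 13627. The pooled region at Sod1 had a TGCGCTC core 2 bp from its summit and ranked 15153. It also held a TGCACCC core 139 bp from the summit and an ARE match, TGACTAGGC, 55 bp from it, outside the 300 bp searched around the start. A core near a start was thus found both with and without a peak. A match is a description of the letters, not a shown binding site.

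Among the regulators, Keap1 (3R 17073942 to 17079945, minus strand) had the strongest regions. The gene has 2 transcript starts, a distal one at 17079945 whose transcripts encode 744 residues and an internal one at 17078102 whose transcript encodes 776. The strongest peak (17078213 to 17078317, signal 260.0) was 105 bp wide, narrower than the list's median of 344 bp, and its summit lay 133 bp upstream of the internal start, inside the gene. It ranked 640 in replicate 2 and 750 in replicate 4, and the summits of both were within 4 bp of the pooled summit. This was the Keap1 peak on which the replicates differed least.

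The other 3 Keap1 peaks surrounded the distal start. The peak of rank 2019 (signal 143.2) had its summit 16 bp from that start, and 315 bp from the start of the divergent gene kuk, which encodes a protein of the nuclear envelope. It ranked 989 in replicate 2 but 5152 in replicate 4, outside the strongest 3587 there. The peak of rank 1460 (signal 170.7), 462 bp downstream, went the other way, at 4975 in replicate 2 and 1304 in replicate 4. The peak of rank 1030 (signal 206.5) also did, at 5356 and 561, and its summit lay in an intron of kuk, nearer to the kuk start (540 bp) than to that of Keap1 (839 bp). Each replicate thus had strong regions on both sides of the distal start, at different distances: replicate 2 close to the start of each gene (ranks 989 and 1812, the latter 38 bp into kuk), and replicate 4 further inside each gene.

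**Figure D2:**
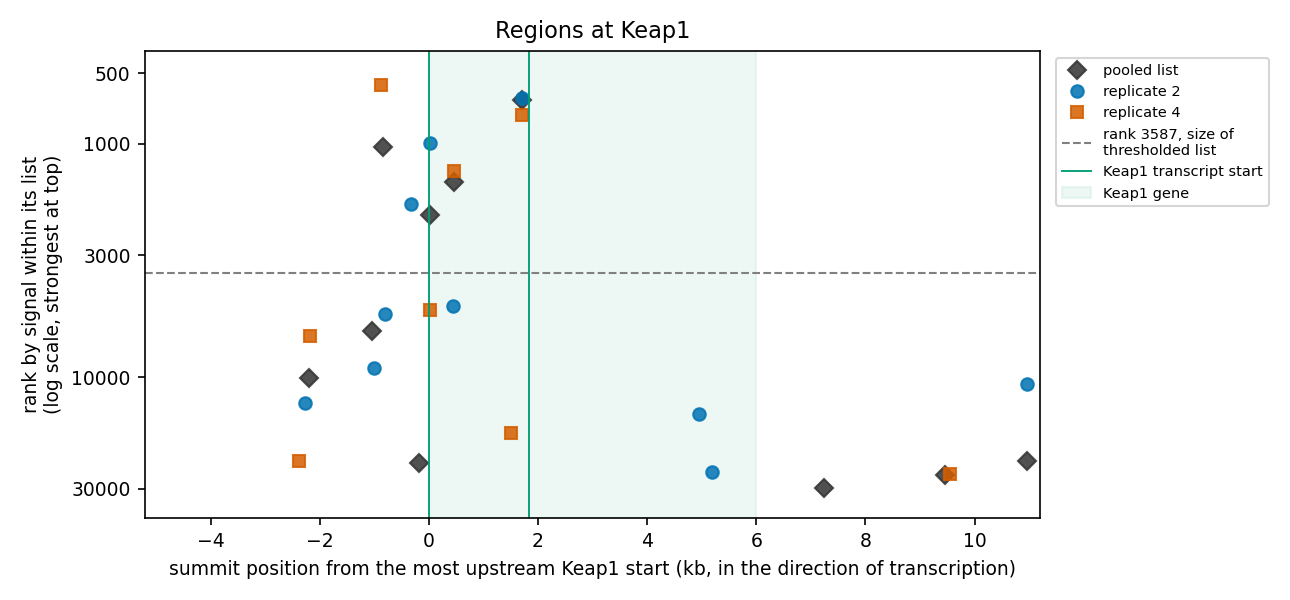
Candidate regions at Keap1 in the pooled list and in each replicate, by summit position from the distal transcript start (x axis, kb in the direction of transcription; positive is into Keap1) and rank (y axis, log scale, strongest at top). Green lines are the 2 transcript starts, the shaded area is the gene and the dashed line is rank 3587. The 3 lists coincide just upstream of the internal start, at ranks 640 to 750, and diverge around the distal start.

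The gene cnc (3R 23185580 to 23226711, minus strand) has 16 transcripts from 10 starts, and its products range from 533 to 1430 residues. Its strongest peak (23189954 to 23190297, signal 152.5) lay 293 bp downstream of the start at 23190419, which makes a product of 533 residues. It ranked 1691 in replicate 2 and 1734 in replicate 4. Of the 3 other cnc peaks, that of rank 2932 (signal 116.5) lay 88 bp upstream of the most distal start at 23226711, whose products have 1133 residues. It ranked 7404 in replicate 2 and 3169 in replicate 4. That of rank 2641 (signal 124.1) lay in an intron 1373 bp downstream of the same start, and ranked 695 in replicate 2 but 5514 in replicate 4. The peak of rank 2129 (signal 139.1) lay beyond the 3′ end of cnc in an intron of Irk1, a potassium channel gene, 666 bp from an Irk1 start and 7950 bp from the nearest cnc start.

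The 4 transcripts with the longest products, of 1383 to 1430 residues, share the start at 23221961, and CncC is the long form of the protein. No thresholded summit lay within 1 kb of that start. The best pooled region there, 53 bp away, ranked 8016. In replicate 2 the best region ranked 25572, 352 bp away, and in replicate 4 it ranked 10245, 53 bp away. The thresholded peaks near a cnc start thus lay at starts of the 533-residue products and of the 1133-residue product. Replicate 4 had a further strong region 354 bp from the start at 23214557 (rank 2137, product of 1046 residues). There replicate 2 had none within 1 kb and the pooled region ranked 5030. The replicate 4 region held an MRE core within 50 bp of its summit, which none of the thresholded cnc peaks did.

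**Figure D3:**
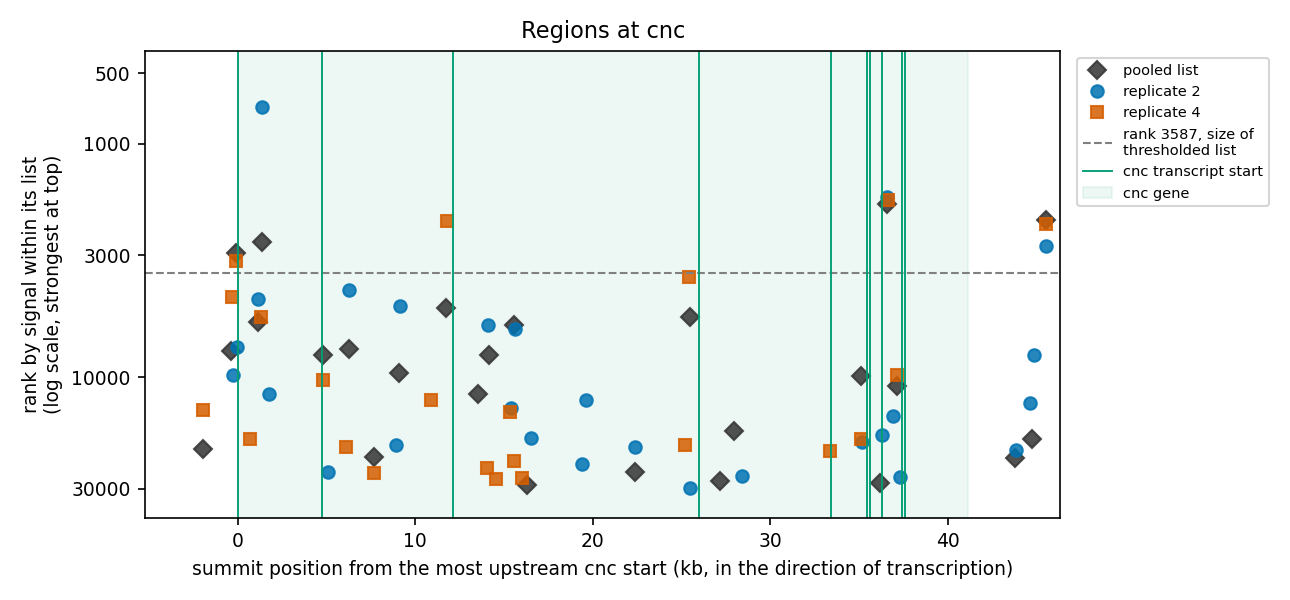
Candidate regions at cnc in the pooled list and in each replicate, by summit position from the most distal transcript start (x axis, kb in the direction of transcription) and rank (y axis, log scale, strongest at top). Green lines are the 10 transcript starts and the dashed line is rank 3587. The lists agree in rank at the cluster of starts of the 533-residue products (1691 to 1810), and replicate 2 stands alone at rank 695 in the intron behind the most distal start.

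Of the cytosolic peroxidase system, Prx2 (X 13329824 to 13331994, plus strand) encodes a thioredoxin-dependent peroxidase. The peak on its own promoter (13329695 to 13330038, signal 129.4) had its summit 43 bp from the most upstream of 4 starts and ranked 2428. Replicate 2 ranked it 1164 and replicate 4 ranked it 5741, so the promoter peak was strong in replicate 2 alone. The stronger peak in the window (13332653 to 13332996, signal 229.0, rank 861) lay downstream of Prx2 in the non-coding gene lncRNA:CR32636, 451 bp from the start of that gene and 1806 bp from the nearest Prx2 start. It ranked 701 in replicate 2 and 1147 in replicate 4 and carried the core shown above. The third (rank 3416, signal 107.2) was intergenic, 2631 bp from the start of RpS15Aa, a ribosomal protein gene. It ranked 2951 in replicate 4 and had no matching region in replicate 2.

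Trx2 (2L 9613166 to 9616404, plus strand) encodes a thioredoxin, the electron donor of peroxiredoxins. Its peak of rank 3289 (9613929 to 9614272, signal 109.5) was intronic, 687 bp downstream of the nearer of 2 starts, and ranked 3871 in replicate 2 and 3144 in replicate 4. These ranks are close to each other and to the cut. The candidate region on the start itself, 60 bp away, ranked 6723. The other peak in reach (signal 104.0, rank 3586, next to last in the thresholded list) lay 35 bp from the start of GlcAT-S, a glucuronyltransferase gene, and ranked 1627 in replicate 2 and 8478 in replicate 4.

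Trxr1 (X 8242528 to 8248033, plus strand), the reductase that recharges thioredoxin, had no thresholded peak at any of its 4 starts. The best pooled region lay 20 bp from the most upstream start and ranked 8009 (signal 62.1), with 5177 in replicate 2 and 25489 in replicate 4. The gene sni overlaps this end of Trxr1 on the other strand, with a start 852 bp from the summit. The best regions in reach in replicates 2 (4116) and 4 (8590) lay 46 bp and 190 bp from the start of the neighbour CG1632. The start at 8245388 had no candidate region within 1 kb in any list.

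The mitochondrial and cytosolic superoxide dismutases differed in rank but not in the same way in each list. Sod2 (2R 16772785 to 16773915, minus strand), the mitochondrial manganese enzyme, had a peak (16773804 to 16774147, signal 105.5) with its summit 61 bp upstream of its start, at rank 3508. The start of another gene, Arp53D, lay 270 bp from that summit. Replicate 4 ranked the peak 2636, with its summit there 142 bp from the Sod2 start and 189 bp from that of Arp53D. Replicate 2 held 1 region in the whole window, of rank 24710 and 2625 bp from the start, so the Sod2 peak rested on replicate 4. The bases around the pooled summit were 23.8% G or C, the lowest share of the 14 peaks. Sod1 (3L 11112281 to 11113740, minus strand), the cytosolic copper and zinc enzyme, had the lowest best rank of the 9 genes in the pooled list and in replicate 4. In replicate 2 its best region in reach, in a coding exon of the neighbour emei, ranked 8854, ahead of those of Prx3 and Sod2. Its single pooled region lay 392 bp from the start and ranked 15153 (signal 41.8). Replicate 4 had a region 490 bp from the start at rank 12680, and replicate 2 had none within 1 kb.

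Cat (3L 18822604 to 18828188, plus strand) encodes catalase. Its best pooled region on the promoter, 129 bp from the start, ranked 9876 (signal 54.5). Replicate 4 had a region 442 bp from the start at rank 8599, and replicate 2 had none within 1 kb. A region in an intron of Cat, 1880 bp downstream of the start, ranked 7580, with 10365 in replicate 2 and 8808 in replicate 4. The best pooled region of the window (6569) lay in the neighbour CG14073, as did the region of rank 3601 in replicate 2, just below the 3587 strongest. Prx3 (3R 17545222 to 17546531, minus strand), the mitochondrial peroxiredoxin, had no region within 1 kb of its start in any list. Its best region was intergenic, 4710 bp upstream, with pooled rank 3744 (signal 101.57, just below the lowest thresholded value of 104.0). It ranked 3408 in replicate 4 and 9411 in replicate 2.

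The replicates were then set side by side for the 14 peaks. A matching region, with its summit within 200 bp, was found in both replicates for 12 of 14 (85.7%), against 93.9% of all thresholded peaks. The exceptions were Sod2 and the intergenic peak near RpS15Aa, neither of which had a match in replicate 2. The matches ranked among the strongest 3587 of both replicates for 4 of 14 (28.6%), against 56.5% of all thresholded peaks and 47.3% of those that ranked no higher than 648 in the pooled list. These 4 were the Keap1 peak at the internal start, the peak downstream of Prx2, the cnc peak of rank 1810 and the peak in Irk1. Their ranks differed between replicates by 1.17 fold, 1.64 fold, 1.03 fold and 1.24 fold.

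The intronic Trx2 peak differed by 1.23 fold, and its rank of 3871 in replicate 2 was just past the limit of 3587. For the other 7 matched peaks the ranks differed by 2.34 fold to 9.55 fold, most for the peak in kuk. On the scale of log2(rank in replicate 4 / rank in replicate 2), the kuk peak had -3.26 and the cnc intron peak of rank 2641 had 2.99. The Keap1 peak at the distal start had 2.38, the Prx2 promoter peak 2.30 and the peak at the GlcAT-S start 2.38. Over all 3368 matched thresholded peaks the median was -0.22 and the quartiles were -1.23 and 0.82. These 5 lay outside the quartiles, as did the Keap1 peak of rank 1460, at -1.93. By definition the quartiles leave as many peaks outside as inside, so lying outside them is not unusual in itself. Of the matched peaks, 3.5% had a lower value than the kuk peak and 13.8% than the Keap1 peak of rank 1460. For the 4 peaks with positive values given above, 95.7% to 98.4% had a lower value. The regions of replicate 2 were wider (median 524 bp) than those of replicate 4 (344 bp). The share of G and C at the summit was 35.6% to 47.5% in the 7 peaks ranked higher in replicate 2, and 23.8% to 53.5% in the 7 ranked higher, or found only, in replicate 4. The part of region width and base composition in these differences was not tested.

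**Figure D4:**
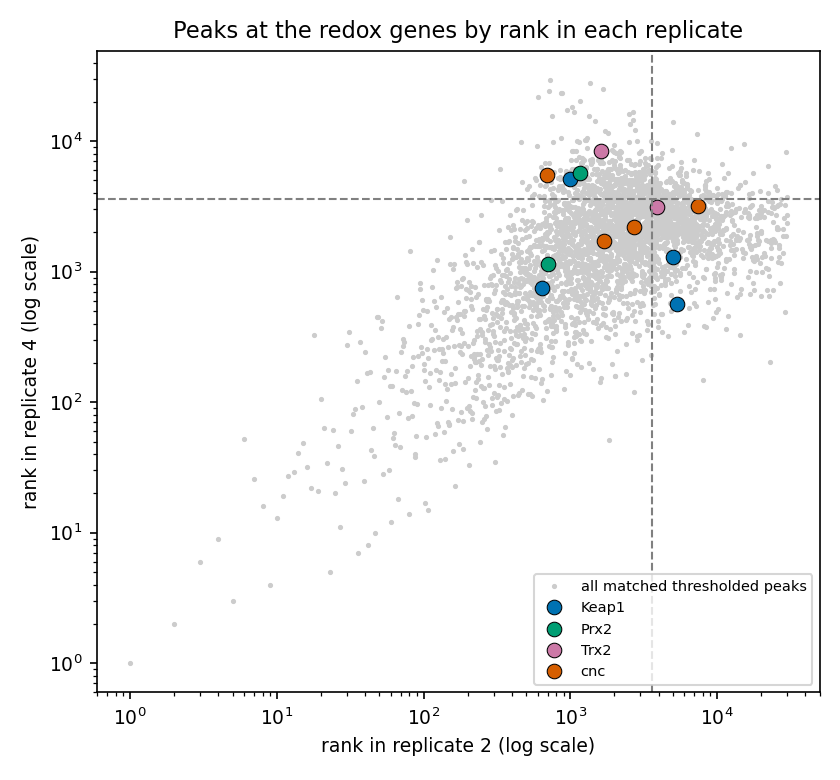
Rank in replicate 2 (x axis) against rank in replicate 4 (y axis), both on log scales, for thresholded peaks matched in both replicates; grey points are all 3368 such peaks and coloured points the 12 at the redox genes. Dashed lines mark rank 3587. Of the coloured points, 4 lie inside both limits, and the other 8 lie beyond 1 of them.

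The thresholded peaks whose ranks were most like those of the leading Keap1 peak (648, 640 and 750) were found by distance in log10 rank over the 3 lists, among 3367 other peaks. They were intronic, with nearest starts of CG14073 (630 pooled, 629 in replicate 2, 802 in replicate 4), lncRNA:CR46259 (655, 595 and 699) and zfh1 (700, 598 and 729). None of the 3 had an MRE core within 50 bp of its summit, where 11.4% of all thresholded peaks have a core.

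A wider list of 24 redox genes, all found in the annotation, was described in the same way. Of these, 8 (33.3%) had a thresholded peak within 1 kb of a start, beside 17.0% of all protein-coding genes, and 15 (62.5%) had one in the gene or within 5 kb, beside 38.7%. Among the peaks within 1 kb of a start, the highest was at Sesn, which encodes the stress-induced sestrin. It ranked 288, with 278 in replicate 2 and 279 in replicate 4, and lay equally far (221 bp) from starts of Sesn and CG46429. GstD1, a glutathione transferase gene, followed at 1369, although lncRNA:CR46015 had the nearest start. SelR, a methionine sulfoxide reductase gene, shared a peak of rank 1606 with the nearer Tsp86D, and this peak ranked 1045 in replicate 4 and 22309 in replicate 2. Prx4, a further peroxiredoxin gene, had a peak of rank 2054, 120 bp from its start. The thioredoxin genes TrxT and dhd shared the peak of rank 2400, 34 bp from the dhd start.

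Prx6a had a peak of rank 3172, nearest to RabGGTb, and Gclm, the modifier subunit of the enzyme that makes the glutathione precursor, had one of rank 3330, 56 bp from its start. The partners of the Keap1-cnc pair had no thresholded peak near a start. The best candidate region at maf-S, the small Maf partner of CncC, ranked 15627 within 1 kb. Cul3, the scaffold of the ligase that Keap1 serves, had no candidate region within 1 kb of a start, and its best peak in the gene or within 5 kb ranked 814. At ref(2)P, which encodes the fly p62, the best region within 1 kb of a start ranked 28137.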

How the data were processed

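ChIP-seq peak lists of 2 samples (1 group, replicates 2 and 4) were used. Per the deposited read-me, the lists are on dm6, replicate lists were made from each replicate's alignments with a shared further file, taken here to be the control, and the thresholded list came from the replicate and pooled lists by the irreproducible discovery rate (IDR). The sources used here do not name the peak caller, aligner, IDR threshold or read depth, so no interval for the sampling of reads can be given. The deposited signal value of each region has no stated scale. It was used to rank regions within a list. The deposited −log10 q-value of the regions lay between 0.162 and 3.8 and was not used for any call.

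Gene models were those of Ensembl release 115 (BDGP6.54), and sequence came from the RefSeq genome of the same assembly as dm6; 0 regions lay beyond a chromosome end. Chromosomes 2L, 2R, 3L, 3R, 4 and X were used, and transposable elements were left out. Coordinates are 1-based. Residue counts are coding codons of the annotation. Python 3.11.15 with pandas 2.3.3 and numpy 2.4.6 was used, and the assignment of summits to genes and the motif search were tested on simulated data. The results are descriptions: with 1 group of 2 replicates no test between groups exists, and none was built over genes. The labels do not say that replicates came from separate crosses. Members and lists were chosen with earlier results of these data known. All 9 members are named; of the 24 other redox genes, those with a peak within 1 kb of a start are named, and Cul3, maf-S and ref(2)P were chosen after their values were seen. Other genes are named where their start was nearer or as near to a summit, and for the 3 peaks of most similar rank. The gene sni, chosen after the values were seen, is named because it overlaps a summit. Arp53D, chosen likewise, is named because its start lay near the Sod2 summit. Alternatives were a stricter list, each replicate alone, other distances, nearest start, and other motif and match windows.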

Additional observations from a re-analysis of the deposited data

How the results depend on the processing

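The 5 genes with a peak in the gene or within 5 kb became 2 (Keap1 and Prx2) among the 1793 strongest thresholded peaks, and 4 to 6 with 1 replicate left out. The count stayed at 5 by nearest start and within 1 kb of the gene, and was 4 in the gene body, where Sod2 was lost. The 5 genes with a peak within 1 kb of a start became 1 (Keap1) among those 1793 peaks, and 3 to 4 with 1 replicate left out, the 3 being without replicate 4. Within 500 bp they were 4, and within 5 kb or by nearest start 5. For these alternative counts no share over all protein-coding genes was taken, so they cannot be set against a background. Peaks with an MRE core numbered 3 to 4 with 1 replicate left out. The count of 12 peaks matched in both replicates was also found with any overlap and with summits within 100 bp. The best rank of a gene moved by more than the SD of the replicates in 7 of 9 genes without replicate 4 and in 1 of 9 without replicate 2. That SD comes from the same 2 ranks, so these 2 counts mainly show that pooled ranks lay nearer to those of replicate 4. With summits within 1 kb of a transcript start, 2 of 8 genes with a value moved (Cat and Prx2). Within 1 kb of the gene, 0 of 8 did. No paired analysis was possible because the series has 1 group and no comparison between groups. Read depth is unknown, so a gene without a peak cannot be told from a gene below detection.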
